A study of Homo sapiens with 27 samples.

Results

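SOX2 was knocked down in SHP77, an established human small cell lung cancer cell line, and the poly(A) RNA of the cells was sequenced 72 hours after transfection. Cells received SOX2 siRNA 1 (n = 2 libraries), SOX2 siRNA 2 (n = 2) or the negative control siRNA, si-control (n = 3), and these 7 libraries belong to a series of 27 samples. Cells given NKX2-1 siRNA 1 or 2 (n = 2 each) enter a direct contrast at the end. All of these cells were transfected with RNAiMAX, a lipid reagent, so that the control cells also carried an siRNA, and 500 ng of RNA entered each library. The genes described are the 12930 of 34742 human genes in the deposited table whose normalized count averaged at least 50 over the 11 siRNA libraries, with both SOX2 siRNAs weighed equally. Nothing states whether the libraries came from separate cultures, so the p-values measure only the spread between libraries, which may be technical. All values come from a single cell line, and the siRNA sequences were not used here.

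SOX2 is a transcription factor of the SRY-related HMG-box family, which binds DNA at a short motif close to CATTGT and often acts beside a second factor on the same element. It keeps embryonic and neural stem cells undifferentiated, patterns the airway epithelium, and is amplified in part of small cell lung cancers. Small cell lung cancer is a neuroendocrine tumour: its cells pack peptide hormones and granins into dense-core granules, and many depend on lineage factors such as NKX2-1.

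The SOX2 siRNA libraries held 16.1 to 30.7 M reads (M for megareads) and the si-control libraries 15.5 to 17.9 M. Mitochondrially encoded genes took 6.90 to 8.96% of reads in the SOX2 siRNA libraries and 9.95 to 10.3% in the si-control libraries. Of 15 neuroendocrine markers, 14 averaged at least 50, and their summed normalized count was 108279 to 117705 in SOX2 siRNA libraries, against 129639 to 131300 in si-control. Of 10 fibroblast markers 3 averaged at least 50 (LUM, PDGFRA and FAP), with COL1A2, COL3A1, DCN, PDGFRB and THY1 at or near 0, and the summed level was 438 to 620.1 in SOX2 siRNA libraries, against 534 to 605 in si-control. Of 12 blood and endothelial markers, PECAM1 alone averaged at least 50, and PTPRC and KDR had no read in any of the 7 libraries. The part of these shifts in the results was not tested. In bulk RNA, fewer cells expressing a gene and less RNA per cell cannot be told apart.

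The targeted transcript fell with each siRNA. SOX2 (ENSG00000181449.3, chr3:181711925-181714436, GRCh38.p14) had 396 and 389 normalized counts with siRNA 1 and 466 and 439 with siRNA 2, against 1191, 1152 and 1084 in si-control. All 4 knockdown libraries lay below the lowest control, as for 26.9% of the 12930 genes. The difference, averaged over the siRNAs on the scale of log2 of the normalized count plus 1, was -1.44 (SE 0.051, limma adjusted p = 9.85e-19), and the fall was slightly deeper with siRNA 1 (-1.54) than with siRNA 2 (-1.33; difference -0.20, limma adjusted p = 0.0316). SOX2-OT, a long non-coding RNA whose gene spans SOX2, averaged under 50 and lies outside the gene set, with 22.1, 17.2, 16.4 and 21.5 in SOX2 siRNA libraries, against 4.99, 13.4 and 8.46 in si-control. It was higher in all 4 libraries (1.11, SE 0.389, limma adjusted p = 0.0172). With siRNA 1 alone SOX2-OT passed (limma adjusted p = 0.0419), and with siRNA 2 alone it did not (0.0565). The library kit named in the labels does not mark strand, so reads of genes that overlap, as these do, cannot be assigned with certainty.

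Of 8 other SOX family members, 3 rose, 3 fell and 2 did not pass. SOX5, which encodes a SOXD factor of neural and cartilage development, had 63.4, 66.5, 59.6 and 75.2 in SOX2 siRNA libraries, against 211, 195 and 178 in si-control. It fell 2.92-fold (-1.54, SE 0.118, limma adjusted p = 1.22e-11), to a similar extent with each siRNA. Its relative SOX6 had 151 and 165 with siRNA 1 and 298 and 315 with siRNA 2, against 418, 372 and 406 in si-control, so that the siRNAs differed from each other (-1.33 and -0.38; difference -0.95, limma adjusted p = 3.98e-08). SOX4, a SOXC factor common in neuroendocrine tumours, fell by less (-0.44, SE 0.036). The other SOXC genes SOX11 (0.37) and SOX12 (0.35) rose. SOX15 (0.41, limma adjusted p = 0.032) also passed, but not without SOX2 siRNA 1 replicate 1 (limma adjusted p = 0.0852), SOX2 siRNA 2 replicate 2 (0.0891) or si-control replicate 2 (0.148).

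Most of the 12930 genes passed the test, and most differences were small. A total of 4166 genes (32.2%) were higher and 4062 (31.4%) lower in SOX2 siRNA libraries at a limma adjusted p under 0.05, and 78.6% of these 8228 genes (63.6%) differed by less than 1.5-fold. With siRNA 1 alone 61.1% of genes passed and with siRNA 2 alone 56.3%. Requiring the average and each siRNA alone to pass in the same direction left 5708 genes (44.1%), 2912 higher (22.5%) and 2796 lower (21.6%). All 4 SOX2 siRNA libraries lay above all 3 si-control libraries for 28.4% of genes and below them for 26.9%. The median log2 difference over all genes was 0.01.

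The balance changed among large differences, where falls outnumbered rises. The filter averages 11 libraries, of which 4 carried SOX2 siRNAs. A gene low only in those 4 therefore passes it more easily than a gene high only in them. The part of the filter in the imbalance was not tested. With each siRNA alone, 331 genes (2.56%) were at least 2-fold lower and 70 (0.541%) at least 2-fold higher. The 331 genes had a median level of 168 normalized counts and the 70 genes 150.5, against 700.1 over all 12930 genes. Of 2652 genes with a mean of 50 to 200, 186 fell and 40 rose by that measure, and of 5254 genes with a mean of 200 to 1000, 118 fell and 15 rose. Of 4331 genes with a mean of 1000 to 5000, 24 fell and 12 rose, while of 693 genes with a mean of at least 5000, 3 fell and 3 rose. Protein-coding genes made up 287 of the 331 and 50 of the 70. SOX2 itself was not among the deepest falls, since 130 genes fell by more than SOX2 with each siRNA. The plot of level against difference shows more large falls than large rises at a mean under 1000.

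**Figure D1:**
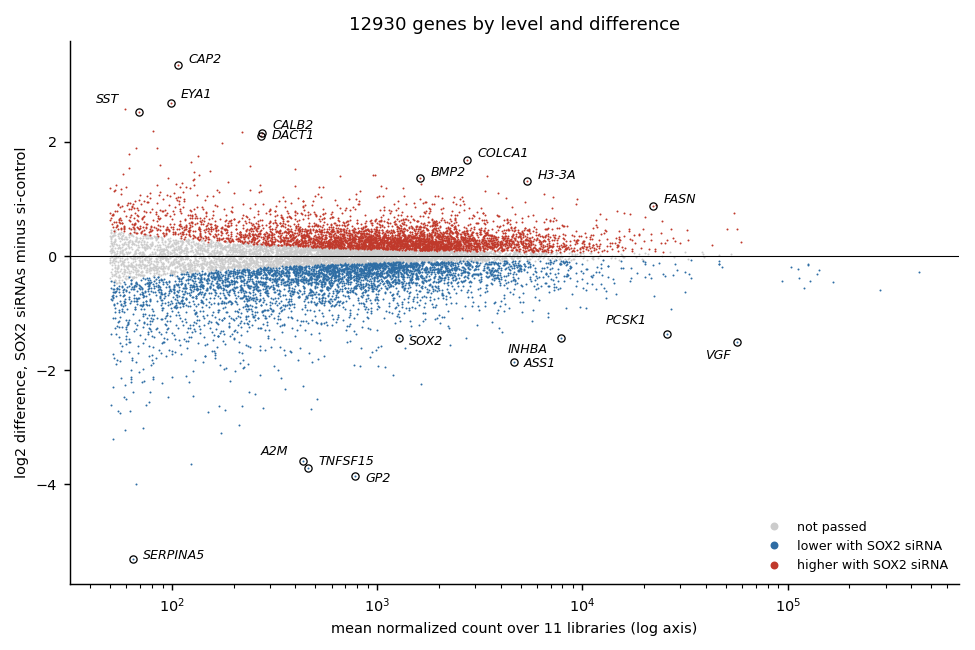
Each point is a gene of the 12930, with its mean normalized count over 11 libraries on a log axis and its log2 difference, SOX2 siRNAs minus si-control, on the vertical axis. Red points passed as higher and blue points as lower in SOX2 siRNA libraries, grey points did not pass, and named circles mark genes described in the text. The lower edge reaches below -4, while the upper edge stays below 4, and both edges draw in as the level rises.

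CAP2, which encodes an actin-binding protein that severs filaments, showed the largest of the rises that held with each siRNA. CAP2 (ENSG00000112186.11) had 233, 227, 288 and 244 in SOX2 siRNA libraries, against 17.5, 29.3 and 25.4 in si-control. The log2 difference was 3.23 with siRNA 1 and 3.44 with siRNA 2. EYA1, a transcriptional coactivator and phosphatase of organ development, had 241 and 261 with siRNA 1 and 188 and 171 with siRNA 2, against 31.2, 28.03 and 38.1 in si-control. ACKR3, a scavenging receptor for the chemokine CXCL12, had 114, 127, 104 and 96.6, against 18.7, 17.1 and 16.9. SST, the peptide hormone somatostatin, had 110.3, 107, 147 and 134 in SOX2 siRNA libraries, against 17.5, 17.1 and 29.6 in si-control. None of these groups overlapped, but these 4 genes were chosen among those without overlap, so this is no finding. All 4 genes averaged under 50 in si-control and with NKX2-1 siRNAs, so they passed the filter only through the SOX2 siRNA libraries. The differences between the siRNAs did not pass for them.

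BMP2, a ligand of the BMP pathway, had 2540, 2317, 2540 and 2615 in SOX2 siRNA libraries, against 977, 1014 and 932 in si-control (1.36, SE 0.046, limma adjusted p = 3.55e-19). MET, the receptor of hepatocyte growth factor, had 1102, 1149, 1184 and 1174, against 414, 434 and 441 in si-control (1.42, SE 0.052, limma adjusted p = 2.02e-18). PDGFRA, a receptor of platelet-derived growth factor, rose more with siRNA 2 (241 and 244) than with siRNA 1 (142 and 142), against 59.9, 48.7 and 54.97 in si-control. The siRNAs differed by -0.77 for PDGFRA (limma adjusted p = 0.000753). DACT1, which binds Dishevelled in the Wnt pathway, had 447, 405, 533 and 569 in SOX2 siRNA libraries, against 126, 109.7 and 103 in si-control.

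TERT, the catalytic subunit of telomerase, had 471, 405, 439 and 381 in SOX2 siRNA libraries, against 125, 140.1 and 162 in si-control (1.57, SE 0.105, limma adjusted p = 7.36e-13). Its lowest knockdown library held more than its highest control, which the choice of this gene required. The scaffold subunit of protein phosphatase 2A, PPP2R1B, rose 2.63-fold to 4681 ± 302 (SD, n = 4), against 1776 ± 71.1 in si-control (SD, n = 3). Here and below, an SD over n = 4 libraries pools both siRNAs and includes the difference between them. COLCA1, annotated as a long non-coding RNA, was at 4285 ± 161 in SOX2 siRNA libraries (SD, n = 4), against 1328 ± 31.9 in si-control (SD, n = 3). CRB2, a Crumbs family polarity protein, and CTTNBP2, a cortactin-binding protein of dendritic spines, rose 3.45-fold and 3.03-fold. CRB2 averaged 29.8 in si-control and 43.97 with NKX2-1 siRNAs, so it passed the filter only through the SOX2 siRNA libraries. LUM, a proteoglycan that organises collagen fibrils, rose 2.78-fold from a low level, with 194, 186, 207 and 254 in SOX2 siRNA libraries, against 59.9, 93.8 and 73.3 in si-control. CALB2, which encodes the calcium-binding protein calretinin, also rose, to 466 and 485 with siRNA 1 and 792 and 768 with siRNA 2, against 121, 134 and 152 in si-control.

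**Figure D2:**
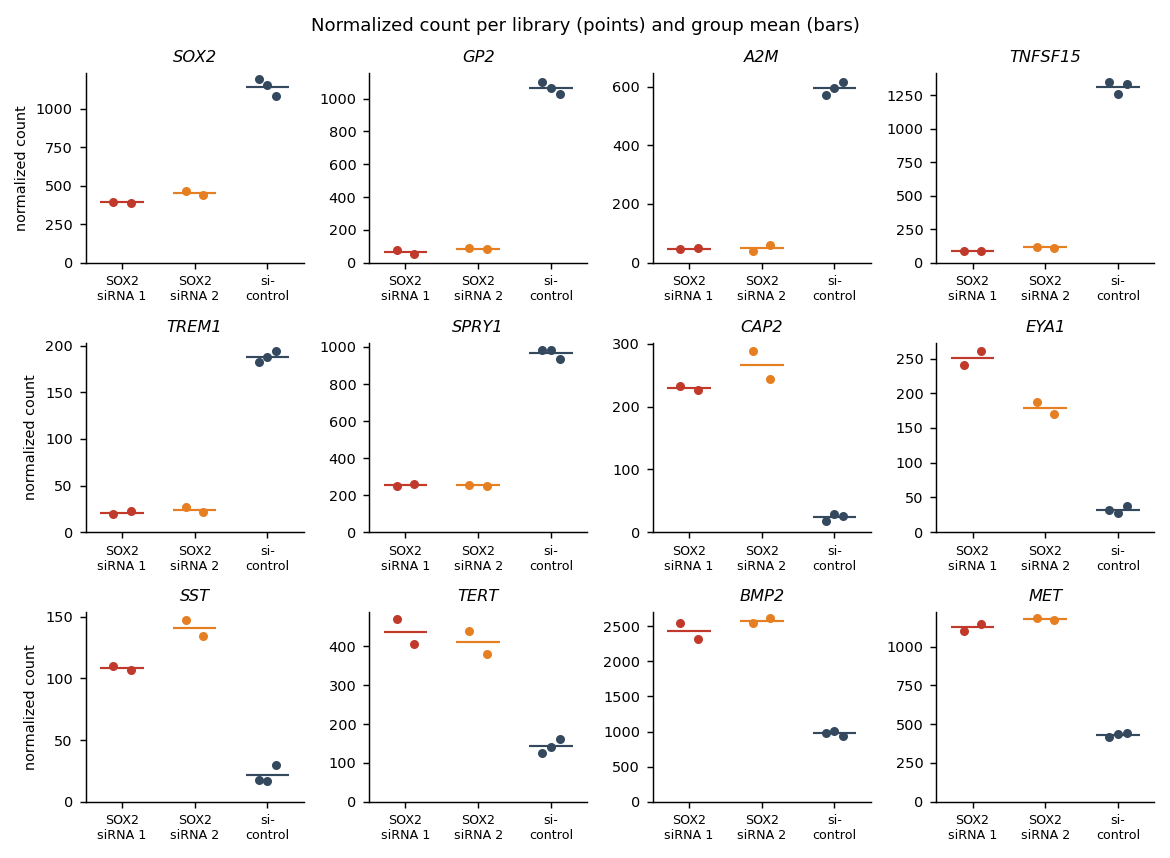
Normalized count (vertical axis, linear, from 0) of 12 genes in each of 2 SOX2 siRNA 1, 2 SOX2 siRNA 2 and 3 si-control libraries, with points for libraries and bars for group means. SOX2, GP2, A2M, TNFSF15, TREM1 and SPRY1 lie lower in every SOX2 siRNA library than in any si-control library, and CAP2, EYA1, SST, TERT, BMP2 and MET lie higher. All but SOX2 and SPRY1 were chosen among genes without overlap.

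The deepest falls left several genes near 0. SERPINA5, which encodes the secreted protein C inhibitor, had 1.42, 0, 0 and 4.03 in SOX2 siRNA libraries, against 86.1, 70.7 and 63.4 in si-control, and MRAS, a small GTPase of the RAS family, had 2.14, 3.695, 2.34 and 0, against 49.9, 37.8 and 36.7. At these levels a few reads set the knockdown value, so no fold is given. Both genes passed the filter only through the libraries without SOX2 siRNA. GP2 (ENSG00000169347.16), a membrane glycoprotein of zymogen granules, fell to 75.5, 52.96, 87.6 and 80.5 in SOX2 siRNA libraries, against 1103, 1063 and 1026 in si-control. A2M, a secreted inhibitor that traps proteases, fell to 45.6, 49.3, 40.9 and 61.7, against 573, 596 and 617. TNFSF15 (ENSG00000181634.7), a cytokine of the TNF family, fell to 85.4, 83.8, 120.3 and 113, against 1353, 1260 and 1336. For GP2 and TNFSF15 the fall was deeper with siRNA 1 (-4.05 and -3.94) than with siRNA 2 (-3.65 and -3.49), and both differences passed (limma adjusted p = 0.0107 and 0.00597).

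Genes known from immune and stromal cells were also in this set. TREM1, a receptor that amplifies inflammation in myeloid cells, had 19.9, 22.2, 26.9 and 21.5 in SOX2 siRNA libraries, against 182, 188 and 195 in si-control. CSF1R, the receptor of macrophage colony-stimulating factor, had 9.25, 6.16, 10.5 and 13.4, against 102, 92.6 and 91.6. TNFRSF9, a costimulatory TNF receptor of T cells, had 63.4, 66.5, 63.1 and 76.5, against 444, 439.9 and 433. The groups did not overlap for any of these genes, which their choice required, while PTPRC, the common leukocyte marker, had no read in any of these libraries. FAP, a surface protease used as a fibroblast marker, had 47.7, 82.5, 70.1 and 63.1 in SOX2 siRNA libraries, against 372, 406 and 441 in si-control, where LUM and PDGFRA went the other way. PECAM1, an adhesion molecule of endothelium that was not in this set, had 66.2, 64.1, 100.4 and 124, against 341, 333 and 327. Its fall was deeper under siRNA 1 (difference -0.77, limma adjusted p = 0.000107).

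The set of deep falls also held CDC42EP1, an organiser of the actin cytoskeleton (8.59-fold lower). The cytosolic phospholipase PLA2G4A fell to a mean of 8.83, against 78.25 in si-control. NPR3, the clearance receptor of natriuretic peptides, fell to 14.9, against 98.99, and the transmembrane serine protease TMPRSS3 to 8.70, against 54.2. For PLA2G4A, NPR3 and TMPRSS3 few reads set the knockdown value, so no fold is given. The chitin-binding receptor FIBCD1 fell 5.697-fold, to a mean of 18.4, and the RNA-binding protein CSDC2 6.74-fold, to 17.4. FRG2C, which has near-identical copies in the genome, fell 6.09-fold, and its count is uncertain for that reason. The genes of this paragraph all averaged under 50 in SOX2 siRNA libraries, as did A2M, TREM1 and CSF1R. They passed the filter only through the libraries without SOX2 siRNA. The 40 genes of the plot by siRNA were chosen because they pass with each siRNA in the same direction without overlap with si-control. Neither their shared direction nor the lack of overlap is a finding.

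**Figure D3:**
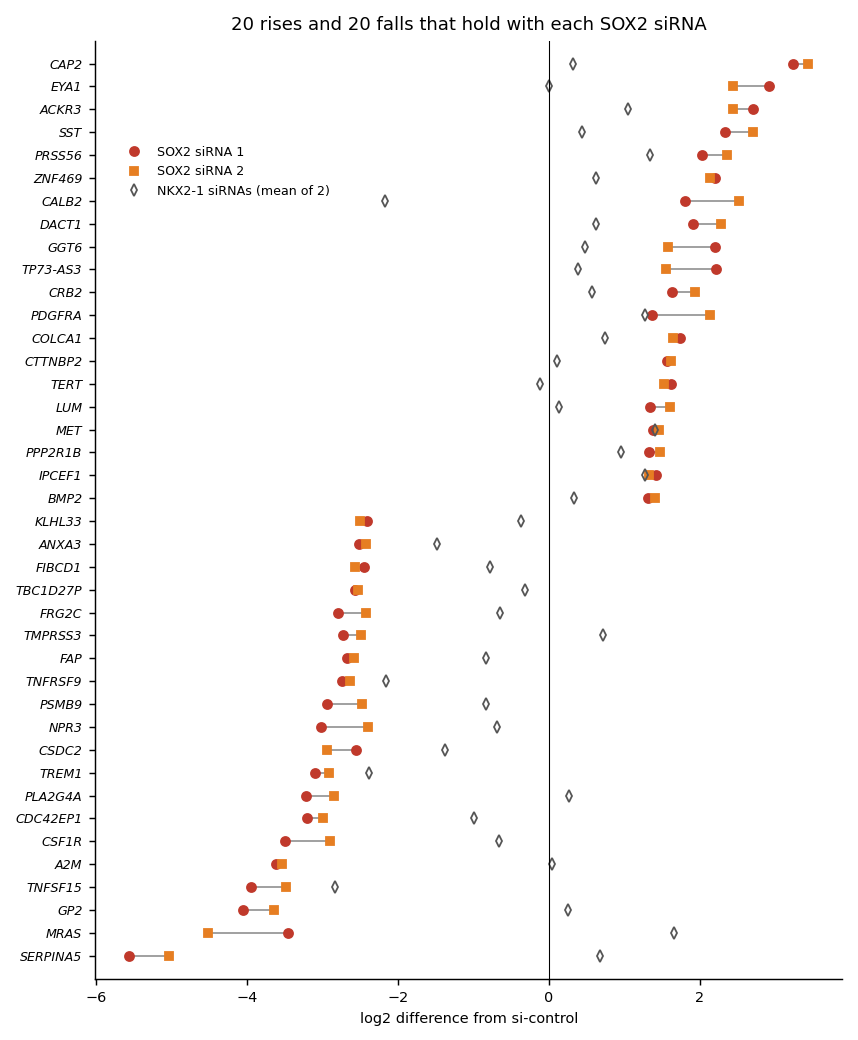
Log2 difference from si-control (horizontal axis) of the 20 rises and 20 falls that were largest with the weaker of the 2 SOX2 siRNAs. Circles show SOX2 siRNA 1, squares SOX2 siRNA 2 and open diamonds the mean of both NKX2-1 siRNAs. The circle and square of a gene lie close together for most genes, the NKX2-1 diamond of CALB2 lies farthest beyond 0 among the rises, and those of MET and IPCEF1, each the mean of both NKX2-1 siRNAs, lie close to the SOX2 values.

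Promoter sequence was read for the genes of this set because SOX2 is a DNA-binding factor. RefSeq promoters (GRCh38.p14, 250 bases before to 50 after the start) were found for 29 of these 40 genes, and the letters CATTGT, or their reverse complement ACAATG, occurred in 4 of them. These are DACT1 and IPCEF1, a partner of cytohesin exchange factors, among the rises, and GP2 and TREM1 among the falls. Each stretch of 60 bases is given 5′ to 3′ on the strand of its gene, with the motif letters in capitals.
DACT1, plus strand, chr14:58633839-58633898: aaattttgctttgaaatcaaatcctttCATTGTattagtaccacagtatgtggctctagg
IPCEF1, minus strand, chr6:154356865-154356924: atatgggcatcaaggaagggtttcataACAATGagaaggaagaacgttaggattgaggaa
GP2, minus strand, chr16:20327665-20327724: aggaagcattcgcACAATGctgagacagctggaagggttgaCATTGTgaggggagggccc
TREM1, minus strand, chr6:41286688-41286747: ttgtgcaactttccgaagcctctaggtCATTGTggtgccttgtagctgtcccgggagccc
The motif began 195 bases before the start in DACT1, 94 in IPCEF1, 198 and 170 in GP2 and 38 in TREM1. Among genes with a promoter in the table, 17 of 237 that fell at least 2-fold with each siRNA held the letters (7.17%), as did 6 of 43 that rose (14%), 602 of all 9990 (6.03%) and 2996 of all 27305 promoters in the reference (11%). A match of 6 letters describes the sequence and is no evidence of binding.

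Among the most abundant genes that passed with both siRNAs and differed at least 2-fold, VGF, a precursor of secreted neuropeptides, had 42409, 35246, 31998 and 32953 in SOX2 siRNA libraries, against 100933, 100111 and 101102 in si-control (-1.51, SE 0.040, limma adjusted p = 2.08e-21). ASS1, the enzyme that joins citrulline and aspartate on the route to arginine, had 2257, 2175, 2326 and 2154, against 7964, 8058 and 8065 (-1.85, SE 0.035, limma adjusted p = 2.87e-24). INHBA, the subunit of activin A, had 3237 and 3498 with siRNA 1 and 6436 and 6348 with siRNA 2, against 12453, 12482 and 12836 in si-control. All of these knockdown values lay below the controls, as they did for 26.9% of all genes. For INHBA the fall was much deeper with siRNA 1 (-1.90) than with siRNA 2 (-0.98; limma adjusted p = 2.62e-15 for the difference). The small heat shock protein HSPB1 fell 2.099-fold and BANP, a nuclear matrix protein that binds DNA, 2.003-fold. DPYSL3, a collapsin response mediator of growth cones, rose to 7683 ± 124 (SD, n = 4), against 3763 ± 121 in si-control (SD, n = 3). The counts of H3-3A, a replication-independent histone variant (2.47-fold higher), and TOMM20, a mitochondrial import receptor (2.12-fold higher), are uncertain because both have near-identical copies.

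Genes were then read by function in 40 lists, each described by how many of its members rose, fell or did not pass, beside the 32.2% higher and 31.4% lower of all genes and their median of 0.01. Only genes that averaged at least 50 are counted as members, such as 13 of 46 peptide hormone genes and 63 of 63 genes of mitosis, so the counts do not describe whole lists. The counts use the average of both siRNAs. With each siRNA alone also required to pass, 22.5% of all genes were higher and 21.6% lower. By that measure DNA replication had 32 higher instead of 43, mesenchymal genes 9 lower instead of 15 and voltage-gated channels 9 instead of 15. Protease inhibitors and complement had 25 lower instead of 26, and secretory granule genes 15 instead of 16. The secretory granule list stood at 0 higher, 16 lower and 2 not passed of 18 members, with a median of -0.60. GP2 and VGF led it. PCSK1, a convertase that cuts prohormones, had 14705 and 15388 with siRNA 1 and 20408 and 20020 with siRNA 2, against 45112, 44832 and 44800 in si-control. The granins SCG2 and CHGB, which fill dense-core granules, fell to 17472 ± 2834 and 7200 ± 481 (SD, n = 4), against 32887 ± 202 and 13440 ± 216 in si-control (SD, n = 3). The second convertase PCSK2 (-0.68), carboxypeptidase E, CPE (-0.36), and the amidating enzyme PAM (-0.39) fell by less. CHGA, the granin most used as a neuroendocrine marker, did not pass (9475 ± 314 in SOX2 siRNA libraries, against 9678 ± 117 in si-control; -0.03, limma adjusted p = 3.71e-01), nor did PCSK1N, an inhibitor of PCSK1 (-0.13, limma adjusted p = 1.04e-01). PCSK1N lay above the si-control mean in SOX2 siRNA 1 replicate 1 (0.213) and below it in the other knockdown libraries (-0.297, -0.216 and -0.225).

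**Figure D4:**
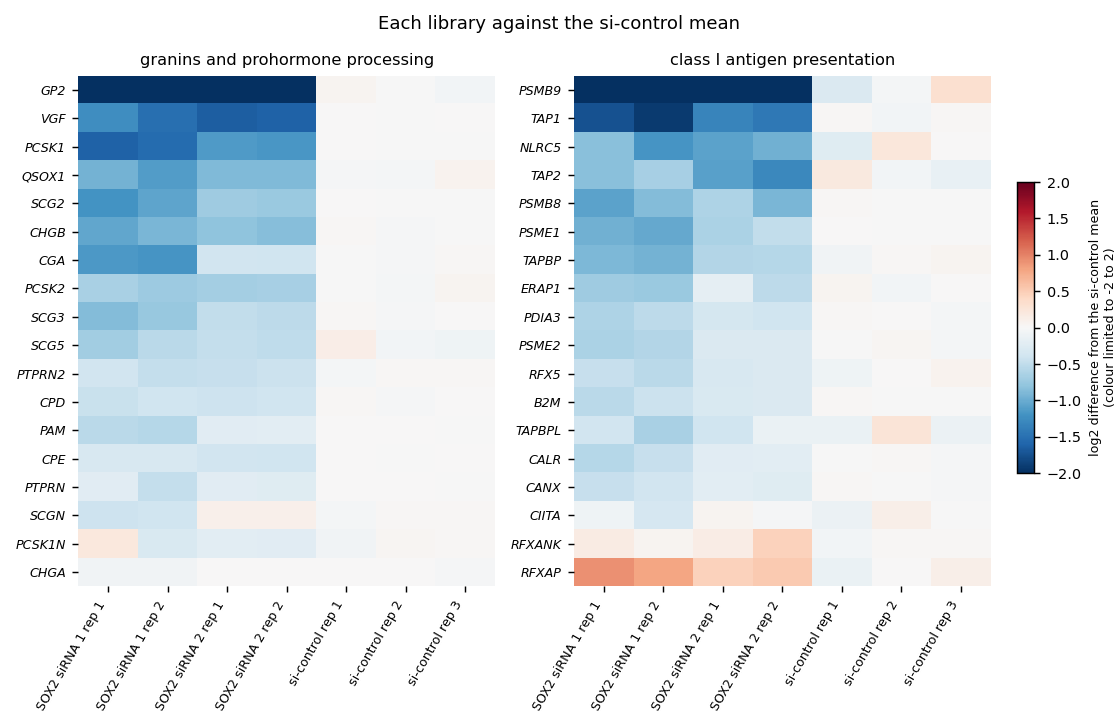
Log2 difference of each library from the si-control mean for the 18 genes of the secretory granule list (left) and 18 of the 19 of class I antigen presentation (right), with 1 member not shown and with colour limited to -2 to 2. Columns are the 4 SOX2 siRNA and 3 si-control libraries. Blue, for lower, fills the SOX2 siRNA columns of most genes, and RFXAP and RFXANK, the higher members of the right panel, are red.

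Peptide hormones split. Of 13 members, 9 fell, 3 rose and 1 did not pass (median -0.44). GRP, the gastrin-releasing peptide long known from these tumours, had 1863, 1995, 2052 and 2005 in SOX2 siRNA libraries, against 4675, 4790 and 4674 in si-control (-1.25, SE 0.035, limma adjusted p = 7.17e-21). Neurotensin, NTS, fell to 1080 ± 34.8 (SD, n = 4), against 2079 ± 15.9 in si-control (SD, n = 3), and ADM2, an adrenomedullin-like peptide, fell 2.09-fold. SST and NPTX1, a secreted pentraxin of synapses (0.63), were among the rises. CALCA, the calcitonin gene, was at 54119 ± 2874 in SOX2 siRNA libraries (SD, n = 4), against 61410 ± 611 in si-control (SD, n = 3), a small fall (-0.18, SE 0.029, limma adjusted p = 4.63e-06).

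Of 37 synaptic vesicle and exocytosis genes, 19 fell, 4 rose and 14 did not pass (median -0.16). SV2B, a vesicle glycoprotein, had 255 and 313 with siRNA 1 and 399 and 376 with siRNA 2, against 1073, 1109 and 1011 in si-control. SNAP25, a SNARE protein of vesicle fusion, had 2350 and 2519 with siRNA 1 and 5425 and 5377 with siRNA 2, against 6921, 7051 and 6875 in si-control. Both fell with each siRNA, and the fall of SNAP25 was deeper with siRNA 1 (difference -1.15, limma adjusted p = 2.57e-17). The synaptotagmin SYT13 fell evenly, to 5870 ± 241 (SD, n = 4), against 10835 ± 94.6 in si-control (SD, n = 3), while SYT7, another synaptotagmin, rose by 0.63.

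Secreted protease inhibitors and complement proteins had the lowest median of any list with at least 10 members, -0.88, with 26 of 28 lower, 0 higher and 2 not passed. The lists were chosen with earlier results of these data known, so this rank is a description. Beside SERPINA5 and A2M, CLU, the extracellular chaperone clusterin, had 109 and 105 with siRNA 1 and 171 and 162 with siRNA 2, against 535, 568 and 502 in si-control. CFI, which inactivates complement, fell to 152 ± 25.2 (SD, n = 4), against 531 ± 10.1 in si-control (SD, n = 3). C5, a component of the terminal complement pathway, fell 3.61-fold and TFPI, the inhibitor of tissue factor, 2.15-fold. SERPINA5, A2M and C5 averaged under 50 in SOX2 siRNA libraries and count as members only through the other libraries. SERPINF1, an antiangiogenic serpin, fell to 2068 ± 226, against 3940 ± 40.3. C4A and C4B, near-identical genes whose counts are uncertain, were also among the lower members. Annexins and S100 proteins, which bind calcium at membranes, had 12 lower, 1 higher and 1 not passed of 14 (median -0.66). ANXA3 had 17.8, 24.6, 26.9 and 18.8 in SOX2 siRNA libraries, against 119, 132 and 125 in si-control, and S100A16 fell 3.51-fold.

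Class I antigen presentation had 16 of 19 members lower, 2 higher and 1 not passed (median -0.47). PSMB9, a catalytic subunit of the immunoproteasome, had 14.95, 13.6, 18.7 and 21.5 in SOX2 siRNA libraries, against 94.8, 113 and 145 in si-control. TAP1, a subunit of the transporter that carries peptides into the endoplasmic reticulum, had 381, 335, 508 and 469.8, against 1288, 1227 and 1298. All knockdown libraries lay below the controls for both genes, which the choice of PSMB9 required and which held for 26.9% of all genes. NLRC5, the class I transactivator, was 2.02-fold lower with 167, 132, 143 and 154 in SOX2 siRNA libraries, against 255, 353 and 302 in si-control. B2M, the light chain of class I molecules, fell by less (log2 difference -0.39). The higher members were RFXAP (0.68) and RFXANK (0.21), subunits of the RFX complex that binds MHC promoters, while RFX5 of the same complex was lower (-0.40). CIITA, the class II transactivator, did not pass (-0.10, limma adjusted p = 5.53e-01).

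Of 35 genes of viral RNA sensing and the interferon response, 27 fell, 1 rose and 7 did not pass (median -0.44). IFIH1, a cytosolic sensor of double-stranded RNA, had 32.03, 44.3, 54.9 and 45.6 in SOX2 siRNA libraries, against 198, 217 and 199 in si-control (-2.21, SE 0.139, limma adjusted p = 2.15e-13). OAS3, a synthetase of the oligoadenylates that activate RNase L, had 149, 137, 175 and 179.8, against 447, 462 and 390.4. IFIT1, an antiviral RNA-binding protein, had 32.03, 38.2, 65.4 and 29.5, against 97.3, 95.1 and 83.2. The groups did not overlap for these genes, as for the 26.9% of all genes that lay below si-control in every SOX2 siRNA library. The transcription factor IRF7 did not pass (0.00), and ADAR, the RNA-editing deaminase, was the member that rose (0.17).

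NF-kB targets and inflammatory genes had 16 of 23 lower, 2 higher and 5 not passed (median -0.57). CXCL8, a chemokine that attracts neutrophils, had 486 and 504 with siRNA 1 and 763 and 769 with siRNA 2, against 2382, 2256 and 2468 in si-control. The fall was deeper with siRNA 1 (difference -0.63, limma adjusted p = 1.05e-06). NFKBIZ, an atypical nuclear IkB protein, fell 2.21-fold and PLAU, the urokinase protease, 2.75-fold. NFKB1 (0.03) and RELA (0.02), which encode the classical NF-kB subunits, did not pass. In the TNF superfamily 8 of 15 fell, 1 rose and 6 did not pass (median -0.28), with TNFRSF12A, the receptor of TWEAK, at 121 ± 35.6 (SD, n = 4), against 439 ± 15.2 in si-control (SD, n = 3).

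Of 31 receptor tyrosine kinases, 19 fell, 7 rose and 5 did not pass (median -0.36). ROR1, a Wnt5a receptor, had 53.4 and 65.3 with siRNA 1 and 109 and 105 with siRNA 2, against 253, 271 and 237 in si-control. ERBB2 (-0.53), FGFR4 (-0.65) and KIT (-0.86), growth factor receptors, were lower, while RET (0.49), a receptor of glial-derived neurotrophic factors, and the ephrin receptor EPHB1 (1.02) rose with MET and PDGFRA. Among RAS family and MAPK feedback genes 15 of 30 fell, 5 rose and 10 did not pass (median -0.10). SPRY1, a feedback inhibitor of receptor signalling, had 249.8, 257, 256 and 251 in SOX2 siRNA libraries, against 983, 986 and 936 in si-control (-1.93, SE 0.056, limma adjusted p = 1.39e-20). The values of its 4 knockdown libraries lay close together. DUSP6 (-0.19), a phosphatase of ERK, fell by little and NRAS (0.96) rose.

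AP-1 and immediate early genes had 14 of 20 lower, 2 higher and 4 not passed (median -0.38). ARC, a synaptic immediate early gene, had 287, 255, 266 and 283 in SOX2 siRNA libraries, against 945, 1026 and 987 in si-control, and the nuclear receptor NR4A1 fell to 1381 ± 74.3 (SD, n = 4), against 3224 ± 68.3 in si-control (SD, n = 3). FOS (-0.21) and JUN (-0.29), the founding AP-1 subunits, fell by less. Notch pathway genes showed no common direction, with 8 lower, 6 higher and 10 not passed of 24 (median 0.05). NRARP, a feedback inhibitor of Notch, had 633, 605, 551 and 569, against 1451, 1455 and 1391 in si-control, and the Notch target HEY1 fell (log2 difference -0.63). RBPJ, the DNA-binding partner of Notch, went the other way with 1576, 1791, 1915 and 1972 in SOX2 siRNA libraries, against 764, 753 and 849 in si-control.

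Wnt and Hedgehog receptors and feedback genes had 14 of 29 lower, 9 higher and 6 not passed (median -0.19), with the Wnt feedback inhibitors NOTUM lower (-0.83) and NKD1 higher (0.82). Of 36 axon guidance genes 19 fell, 8 rose and 9 did not pass (median -0.17), and the netrin receptor UNC5B fell 2.45-fold and the ephrin EFNA1 2.35-fold. YAP and TAZ targets were evenly split, 5 higher, 5 lower and 4 not passed of 14 (median 0.04). MYOF, a membrane repair protein, had 78.3, 72.7, 107 and 106 in SOX2 siRNA libraries, against 462, 491 and 461 in si-control, while TGFB2, a ligand of the TGF-beta family, had 492, 572, 669 and 718, against 251, 259.6 and 261. The groups stood apart for both genes, in opposite directions, as they did upward for 28.4% and downward for 26.9% of all genes.

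Most genes of mitosis and of DNA replication were higher by small amounts, while other cell cycle genes were divided. Of 63 genes of mitosis and G2/M, 55 were higher, 1 lower (CDC25B, -0.15) and 7 not passed, with a median of 0.34. ESPL1, the separase that parts sister chromatids, had 2390, 2338, 1819 and 1953 in SOX2 siRNA libraries, against 1294, 1276 and 1198 in si-control (0.75, SE 0.049, limma adjusted p = 4.02e-13), and the transcription factor MYBL2 had 3130, 3003, 2852 and 2926, against 2072, 1888 and 1931. The groups did not overlap for either gene, which held upward for 28.4% of all genes, and the changes were under 2-fold. Of 59 DNA replication genes 43 rose, 4 fell and 12 did not pass (median 0.24), with POLD1, the catalytic subunit of polymerase delta, at 2274 ± 221 (SD, n = 4), against 1473 ± 29.3 in si-control (SD, n = 3). The falls were GINS4 (-0.31), PRIM2 (-0.35), POLD3 (-0.27) and RPA3 (-0.30), of which PRIM2 (-0.80) and POLD3 (-0.62) were lower with siRNA 1 and not with siRNA 2 (0.11 and 0.08). G1 cyclins, CDKs, RB and E2F genes had 19 higher, 7 lower and 8 not passed of 34 (median 0.18). E2F2 rose 1.62-fold, while cyclin D1, CCND1, had 493, 479, 475 and 526 in SOX2 siRNA libraries, against 941, 868 and 892 in si-control.

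The p53 targets gave 11 lower, 8 higher and 7 not passed of 26 (median -0.06). CDKN1A, the CDK inhibitor p21, rose with 6071 and 5758 under siRNA 1 and 7606 and 7517 under siRNA 2, against 4708, 4595 and 4757 in si-control, while GADD45A, a stress-induced growth arrest gene, fell 1.67-fold. In the BCL2 family 6 of 15 rose, 3 fell and 6 did not pass (median 0.02), with the effector BAK1 higher (0.49) and the BH3-only gene BBC3 lower (-0.74).

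Lipid synthesis genes moved in both directions. Of 33 cholesterol synthesis and SREBP genes 19 rose, 6 fell and 8 did not pass (median 0.14), with lanosterol synthase, LSS, at 3776 ± 268 (SD, n = 4), against 2216 ± 33.6 in si-control (SD, n = 3). NPC1L1, an importer of dietary sterol, fell 2.52-fold. Of 22 fatty acid synthesis genes 11 fell, 6 rose and 5 did not pass (median -0.13). FASN, the fatty acid synthase, had 34177, 27653, 27119 and 27324 in SOX2 siRNA libraries, against 15976, 15545 and 15790 in si-control (0.88, SE 0.046, limma adjusted p = 4.37e-15), while the desaturase family gene FADS3 fell 3.15-fold. Every knockdown library held more FASN than any control, a separation found for 28.4% of all genes.

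The integrated stress response and amino acid list had 36 of 45 members lower, 2 higher and 7 not passed (median -0.35). ASNS, asparagine synthetase, had 3648, 3861, 3276 and 3463 in SOX2 siRNA libraries, against 7865, 7809 and 7700 in si-control, and FGF21, a hormone of starvation, had 164, 127, 137 and 117, against 372, 399 and 443. GDF15, a stress cytokine, fell 2.32-fold and SLC1A4, a transporter of neutral amino acids, 1.93-fold. The groups did not overlap for these genes, which held downward for 26.9% of all genes. The higher members were the aminoacyl-tRNA synthetases MARS1 (0.18) and TARS1 (0.13). Unfolded protein response genes had 27 of 39 lower, 6 higher and 6 not passed (median -0.26). The chaperone HSP90B1 fell to 20927 and 22624 with siRNA 1 and 27263 and 27595 with siRNA 2, against 37576, 38090 and 37183 in si-control. The disulfide isomerase PDIA4 rose to 6861 and 6807 with siRNA 1 and 9036 and 8831 with siRNA 2, against 5029, 4810 and 4874 in si-control. Hypoxia and glycolysis genes had 16 lower, 5 higher and 16 not passed of 37 (median -0.08), led by the prolyl hydroxylase P4HA1 (-1.18), with GAPDH (0.03) and LDHA (-0.04), enzymes of glycolysis, not passed.

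Among neuroendocrine lineage factors MYCL, NKX2-2 and ID4 changed at least 2-fold and the rest by less. Of these 27 transcription factors 13 rose, 8 fell and 6 did not pass (median 0.10). INSM1, a zinc finger factor of neuroendocrine cells, rose by 0.47 on the log2 scale. MYCL, a MYC family factor often amplified in this cancer, had 76.2, 45.6, 85.3 and 93.95, against 187, 171 and 190.3 in si-control, and MYC had 2885, 2812, 2491 and 2453 in SOX2 siRNA libraries, against 1703, 1778 and 1694 in si-control. These relatives moved in opposite directions with each siRNA. NKX2-2, a homeobox factor of neural and endocrine progenitors, rose 2.24-fold, and ID4, an inhibitor of DNA binding, 2.01-fold. Stem and oncofetal genes had 7 higher, 3 lower and 3 not passed of 13 (median 0.20), with LIN28B, an inhibitor of let-7 processing, at 969, 1091, 1184 and 1152 in SOX2 siRNA libraries, against 630.2, 635 and 578 in si-control, and NES, the intermediate filament nestin, at 2804, 2739, 2841 and 2683, against 6111, 6182 and 6164. Among genes of the EYA network 4 of 7 rose, 2 fell and 1 did not pass (median 0.47), EYA2 by 0.62 and SIX2 by 0.47.

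Neuronal cytoskeleton and axon growth genes were split, 12 higher, 12 lower and 10 not passed of 34 (median -0.03). GAP43, a growth cone protein, had 439.9, 482, 539.5 and 494 in SOX2 siRNA libraries, against 1283, 1317 and 1178 in si-control. Of 30 voltage-gated ion channels 15 fell, 6 rose and 9 did not pass (median -0.17). The potassium channel subunit KCNF1 fell 3.35-fold and the P/Q-type calcium channel gene CACNA1A rose 2.06-fold. Surface targets of small cell therapy had 14 of 19 lower, 1 higher and 4 not passed (median -0.46). CEACAM5, an adhesion antigen, had 241 and 218 with siRNA 1 and 347 and 379.8 with siRNA 2, against 1060, 988 and 975 in si-control, DLL3, a Notch ligand, did not pass (0.10, limma adjusted p = 1.07e-01), and the sialoglycoprotein CD24 rose (0.68).

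Epithelial junction and keratin genes had 18 of 27 lower, 1 higher and 8 not passed (median -0.36), with the junction protein TJP3 3.19-fold and the keratin KRT80 3.01-fold lower. Mesenchymal genes had 15 of 28 lower, 4 higher and 9 not passed (median -0.22), and TGFBI, a matrix protein induced by TGF-beta, had 22.1 and 32.02 with siRNA 1 and 58.4 and 53.7 with siRNA 2, against 258, 241 and 233 in si-control. Of 10 collagens 4 fell, 2 rose and 4 did not pass (median -0.19), among them COL4A2 (-0.82) and COL5A1 (0.52). Of 10 lung epithelial and gut endoderm genes 5 fell, 3 rose and 2 did not pass (median -0.09), with the gut homeobox factor CDX2 lower (-0.61). Of 76 ribosomal protein genes 30 rose, 8 fell and 38 did not pass (median 0.05), and with quantile normalization 21 fell. Their many pseudogene copies leave these counts uncertain.

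**Figure D5:**
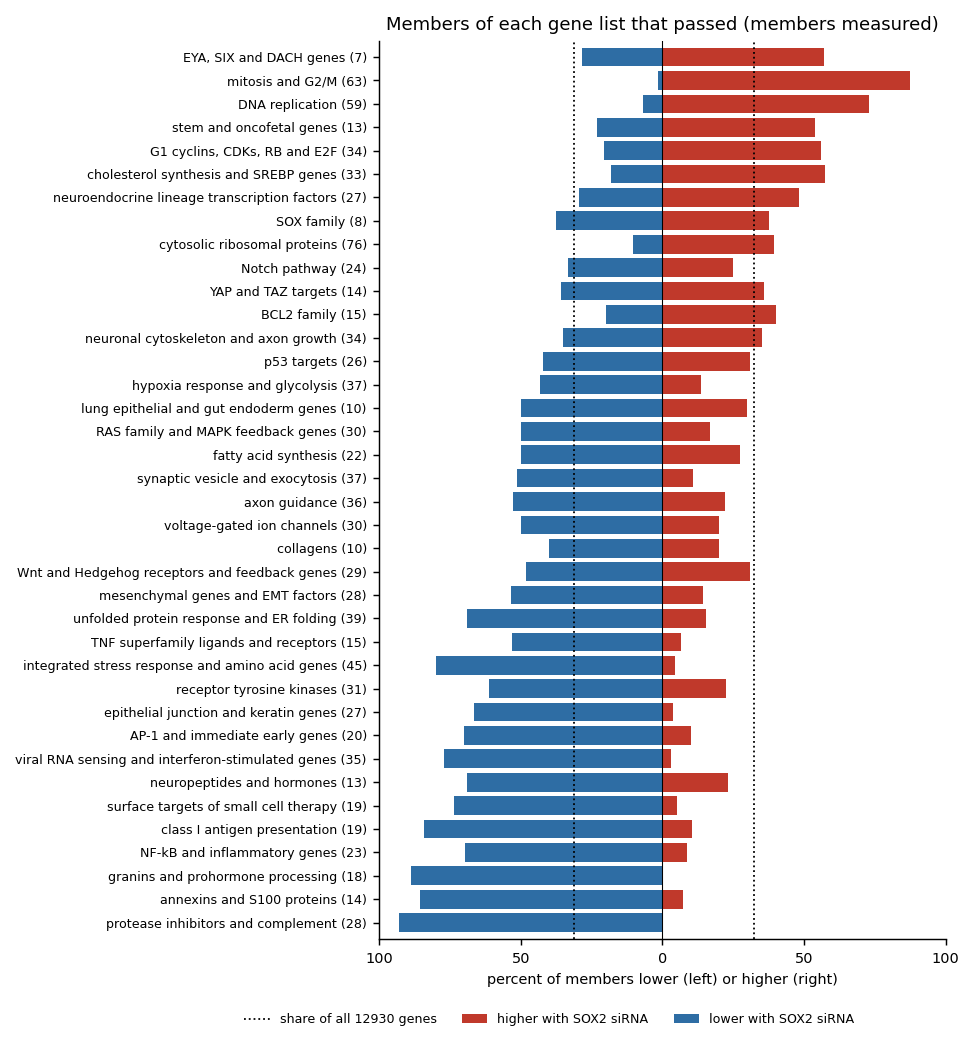
Percent of the members of each list with at least 5 members that passed as lower (blue, left of 0) or higher (red, right of 0) in SOX2 siRNA libraries, with the number of members in parentheses and the lists in order of their median difference; the fibroblast list (3 members) and the blood and endothelial list (1 member) are not drawn. Dotted lines mark the 31.4% lower and 32.2% higher among all 12930 genes. Protease inhibitors and complement (26 of 28 lower) lie at the bottom, and mitosis and G2/M (55 of 63 higher) near the top.

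The siRNAs were also compared with each other. Of 12930 genes 2980 (23%) differed between siRNA 1 and siRNA 2, 1300 higher (10.1%) and 1680 lower (13%) with siRNA 1, and 90 of these differed at least 2-fold. The count was 1669 with eBayes without a trend, 1835 without SOX2 siRNA 2 replicate 1 and 1829 without SOX2 siRNA 2 replicate 2. For 167 genes each siRNA passed against si-control in opposite directions and the difference passed. ANKRD46, an ankyrin repeat protein, had 199 and 287 with siRNA 1 and 855 and 834 with siRNA 2, against 461, 511 and 496 in si-control. MIGA1, a protein of mitochondrial fusion, had 335 and 362 with siRNA 1 and 1038 and 1039 with siRNA 2, against 632, 579 and 593. VAMP3, a SNARE of recycling endosomes, had 697 and 699.6 with siRNA 1 and 1937 and 2028 with siRNA 2, against 1549, 1549 and 1636 in si-control. ZNF708, a zinc finger protein, followed the same pattern, and TTBK1, a kinase of tau, the opposite one (256 and 211 with siRNA 1 and 74.7 and 65.8 with siRNA 2, against 166, 119 and 138). For such genes the average of the siRNAs describes neither of them.

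The SOX2 siRNA libraries were also compared directly with the NKX2-1 siRNA libraries, in which the same reagent carried siRNAs to another lineage factor. The same SOX2 siRNA libraries enter both this contrast and the one above, so the contrasts are not independent. The NKX2-1 siRNAs were averaged with equal weight, as the SOX2 siRNAs were, and this average describes neither where they differ. Of 12930 genes 8260 (63.9%) passed, with 4312 (33.3%) higher and 3948 (30.5%) lower with SOX2 siRNAs than with NKX2-1 siRNAs. SOX2 itself was at 423 ± 36.3 with its own siRNAs (SD, n = 4) and 2219 ± 83.04 with NKX2-1 siRNAs (SD, n = 4), a difference of -2.39 (SE 0.047, limma adjusted p = 4.84e-24). Of the 331 genes at least 2-fold below si-control with each SOX2 siRNA, 312 were also below the NKX2-1 average, 9 were above it and 10 did not pass. Of the 70 genes at least 2-fold above si-control, 56 were also above the NKX2-1 average, 2 were below it and 12 did not pass.

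GP2 was at 74.1 ± 14.96 with SOX2 siRNAs and 1278 ± 163 with NKX2-1 siRNAs (-4.11, SE 0.079, limma adjusted p = 4.84e-24). A2M was at 49.4 ± 8.94 with SOX2 siRNAs, against 335 and 366 with NKX2-1 siRNA 1 and 1075 and 1055 with NKX2-1 siRNA 2. SPRY1 was at 254 ± 3.67 with SOX2 siRNAs, against 863 and 892 with NKX2-1 siRNA 1 and 1690 and 1745 with NKX2-1 siRNA 2. For A2M and SPRY1 the libraries of NKX2-1 siRNA 1 lay below every si-control library and those of NKX2-1 siRNA 2 above every one, while all of them lay above the SOX2 siRNA libraries. CALB2 was at 628 ± 176 with SOX2 siRNAs and 30.01 ± 7.12 with NKX2-1 siRNAs, where it lay below si-control, so that its direct difference was 4.33 (limma adjusted p = 2.73e-20). HEY1, a Notch target, was at 369 ± 16.99 with SOX2 siRNAs and 1594 ± 111 with NKX2-1 siRNAs. LIN28B was at 1099 ± 94.95 with SOX2 siRNAs, against 262 ± 43.3 with NKX2-1 siRNAs. Each mean and SD is over n = 4 libraries, and each SD includes the difference between the siRNAs to the same gene.

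For other genes the NKX2-1 siRNAs lay on either side of the SOX2 siRNAs. MET was at 1153 ± 36.5 with SOX2 siRNAs, against 1366 and 1250 with NKX2-1 siRNA 1 and 1014 and 987 with NKX2-1 siRNA 2 (average difference 0.01, SE 0.048, limma adjusted p = 0.867). PCSK1 was at 17630 ± 3001 with SOX2 siRNAs, against 11162 and 10569 with NKX2-1 siRNA 1 and 28523 and 28911 with NKX2-1 siRNA 2 (average difference -0.02, SE 0.026, limma adjusted p = 0.565). CXCL8 was at 630.4 ± 157 with SOX2 siRNAs, against 191 and 222 with NKX2-1 siRNA 1 and 893 and 1019 with NKX2-1 siRNA 2 (average difference 0.47, SE 0.056, limma adjusted p = 5.42e-08). In these 3 genes every SOX2 siRNA library lay between the libraries of NKX2-1 siRNA 1 and those of NKX2-1 siRNA 2, so the averages describe neither NKX2-1 siRNA. Against the NKX2-1 average, by list, protease inhibitors and complement were lower with SOX2 siRNAs than with NKX2-1 siRNAs in 23 of 28 members and higher in 2, secretory granule genes in 16 of 18 and higher in 1, and class I antigen presentation in 15 of 19 and higher in 1. AP-1 genes split evenly, 6 lower and 6 higher of 20, as did NF-kB genes, 7 lower and 7 higher of 23. Mitosis genes were higher with SOX2 siRNAs in 48 of 63 and lower in 0, beside 33.3% higher and 30.5% lower over all genes.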

How the data were processed

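Poly(A) RNA of 11 siRNA libraries was sequenced as paired reads of 150 bases, per the labels. The signal the authors deposited is a normalized count per gene and library; per the submitters' processing notes they used cutadapt 2.5, STAR 2.5.2b, DESeq2 and hg38. Neither annotation nor counting tool was named in the sources used here. Within each column 100% of values were whole multiples of a step (tolerance 0.05 reads), which gave reads and depth. Of 34791 features, 38 non-human ones and 11 copies on chromosome Y were left out. A symbol was found for 77.0% of genes and for 12546 of the 12930 described.

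The 16750 genes with a mean of at least 10 were tested in R 4.3.3 with limma 3.58.1, fitted to log2(normalized count + 1) with 1 mean for each siRNA over all 11 libraries, using trended eBayes, two-sided, with Benjamini-Hochberg adjustment over all of them. This scale understates the change of low genes. Gene counts and shares are over genes with a mean of at least 50. The fit was tested on simulated data. On the reads, edgeR 4.0.16 and DESeq2 1.42.0 were run as alternatives.

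By rule, the genes named are SOX2 and SOX2-OT, the 20 rises and 20 falls largest with the weaker siRNA among those whose libraries do not overlap with si-control, up to 4 members per list, the 10 most abundant changing at least 2-fold, and 5 with opposite siRNAs. Other genes were named after their values were seen, and some that the rule took are not described. Members and lists were chosen with earlier results of these data known. Replicates differed by more than counting error. Chi-square over degrees of freedom was 5.26 for the SOX2 siRNA 1 pair, against 1.565 for the SOX2 siRNA 2 pair and 1.51 to 1.55 for si-control pairs. The libraries of SOX2 siRNA 1 thus differed from each other the most.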

Additional observations from a re-analysis of the deposited data

Results flagged for a closer look

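Genes were looked at again where the effects of the siRNAs differed from each other, by the test of SOX2 siRNA 1 minus SOX2 siRNA 2 at a limma adjusted p under 0.05. Of 172 genes named here 72 did so, against 2980 (23%) of all 12930 genes (1669 with eBayes without a trend, and 1829 to 3133 when leaving out 1 library), and in 63 of them both siRNAs lay on the same side of si-control. The values are log2 differences, SOX2 siRNA 1 minus SOX2 siRNA 2, with n = 2 libraries each.

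The fall was deeper with siRNA 1 for SNAP25 (-1.15), TGFBI (-1.05), SOX6 (-0.95), INHBA (-0.93), ROR1 (-0.84), PECAM1 (-0.77), PLAU (-0.76), TNFRSF12A (-0.68), CEACAM5 (-0.66), CLU (-0.64), CXCL8 (-0.63), MYCL (-0.59), TFPI (-0.56), MYOF (-0.50), TNFSF15 (-0.46), SV2B (-0.46), TAP1 (-0.45), CDX2 (-0.43), PCSK1 (-0.43), GP2 (-0.40), SCG2 (-0.40), CFI (-0.40), UNC5B (-0.39), NFKBIZ (-0.37), SOX4 (-0.34), HSP90B1 (-0.33), PAM (-0.33), HSPB1 (-0.32), GDF15 (-0.23), DUSP6 (-0.22), SOX2 (-0.20), SERPINF1 (-0.20), B2M (-0.19), GADD45A (-0.19), CHGB (-0.15) and CALCA (-0.11). The fall was deeper with siRNA 2 for TJP3 (0.62), VGF (0.25) and ASNS (0.16).

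The rise was larger with siRNA 2 for PDGFRA (-0.77), CALB2 (-0.71), NKD1 (-0.60), PDIA4 (-0.39), TGFB2 (-0.39), DACT1 (-0.37), CDKN1A (-0.36), EYA2 (-0.29), E2F2 (-0.23), RBPJ (-0.21), CACNA1A (-0.21), SIX2 (-0.21), SOX11 (-0.18), PPP2R1B (-0.14) and CD24 (-0.11). The rise was larger with siRNA 1 for COL5A1 (0.37), RFXAP (0.36), ESPL1 (0.33), MYC (0.20), FASN (0.18), SOX12 (0.16), LSS (0.15), MARS1 (0.15) and ADAR (0.12).

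The siRNAs lay on opposite sides of si-control for ANKRD46 (-1.82), ZNF708 (-1.77), TTBK1 (1.71), MIGA1 (-1.57), VAMP3 (-1.50), PRIM2 (-0.90), POLD3 (-0.69), DLL3 (-0.27) and RELA (0.17). ANKRD46, ZNF708, MIGA1, VAMP3 and TTBK1 were named for that reason, so their values are a description. Sequencing depth was 30.7 and 17.7 M reads with siRNA 1, against 18.5 and 16.1 M with siRNA 2, and the part of depth in these differences was not tested.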

How the results depend on the processing

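Over 18 alternatives (edgeR, DESeq2, other normalizations, pseudocounts and filters, the 7 libraries alone, a replicate block, and each of 7 libraries left out), 194 of 197 values of 11 summary results stayed within 1.5 times, or in direction and call. The exception was the number of genes that differ between SOX2 siRNA 1 and SOX2 siRNA 2, which was 2980, against 1669 with eBayes without a trend and 1829 to 3133 when leaving out 1 library (1835 without SOX2 siRNA 2 replicate 1 and 1829 without replicate 2). Leaving out 1 library gave 3823 to 4159 genes higher and 3749 to 4031 lower, 65 to 74 and 323 to 339 at least 2-fold with each siRNA, and -1.47 to -1.40 for SOX2. Of 1440 values for list counts 1418 stayed within 1.5 times, and all 522 for counts of at least 10 did. Of 3348 values for 186 genes taken by the naming rule, 3340 kept their call and none reversed. Most of these genes were chosen because they passed with large differences, so a kept call was likely beforehand. Genes named after their values were seen were not part of this count. SOX15 did not pass under 6 alternatives, such as DESeq2 (adjusted p = 0.105), no filter (0.0584) and the replicate block (0.0592), with adjusted p of 0.00436 to 0.148 over all of them. Quantile normalization moved the median of all genes to 0.04 and the share of calls that were higher to 54.4%, against 50.6%. Same-numbered replicates did not deviate together (correlations of -0.028 to 0.0081). With 2 libraries for each SOX2 siRNA this check cannot exclude that same-numbered libraries shared a culture or batch. With the replicate block 3714 genes were higher, 3698 lower and 2526 differed between the siRNAs. Depth of 15.5 to 30.7 M reads limits genes near 0, such as SERPINA5 and MRAS.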
